A study of Homo sapiens with 25 samples.

Results

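The expression of 46 genes of the DNA replication machinery, with the MCM helicase genes left aside, was followed by RNA sequencing in DND-41, a human cell line from a T-cell acute lymphoblastic leukaemia, grown at graded levels of histidine. The members were the 46 rows of the deposited table named by a fixed list of symbols, out of 31919 rows, and all 46 were found. They belong to 9 roles, from origin recognition to chromatin assembly. Cells had no histidine or 12.5%, 25%, 50% or 100% of it in the medium and were collected on day 6 or day 9, which gave 25 libraries in 9 groups. Day 6 had 3 libraries each without histidine and at 12.5%, 50% and 100%, and 2 at 25%. Day 9 had 3 libraries each at 12.5%, 25% and 100% and 2 at 50%, and no title places a library without histidine on that day. The labels name no drug and no genetic change, do not give the amount of histidine that 100% stands for, and do not state whether the replicates come from separate cultures. P-values therefore reflect only how far these libraries differ, and that spread may be technical. Histidine is an essential amino acid, and the comparisons ask how the replication genes are expressed when less of it is supplied.

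Replication starts at origins, where the origin recognition complex, CDC6 and CDT1 load the MCM helicase while geminin restrains CDT1. The CDC7 and cyclin E kinases, CDC45 and the GINS complex then turn the loaded helicase into a moving fork. Polymerase alpha with primase starts each strand, polymerases delta and epsilon extend it on the PCNA clamp, and nucleases and a ligase join the lagging-strand pieces. Many of these genes are transcribed by E2F factors as cells enter S phase, so their mRNAs are commonly high in dividing leukaemia cells.

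Values are normalized counts, as deposited by the authors. Changes are differences between group means of the log2 of the normalized count plus 1. They are given ± SE from a limma fit over all 25 libraries. A gene is called higher or lower at a Benjamini-Hochberg adjusted p under 0.05 over the 18799 genes tested. Genes were tested if they reached a normalized count of 10 in at least 2 libraries, which all 46 members did. The change per gene can reflect fewer cells of a type as well as less RNA per cell, and in bulk samples these cannot be told apart. Normalization to the library also removes any change in total RNA per cell.

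The libraries held 13.6 M to 16.1 M normalized counts and 14425 to 16263 genes at 10 or more. Correlations between libraries were 0.964 to 0.972 within groups and 0.94 to 0.973 between groups. These ranges overlap when all pairs of groups are pooled, and single pairs of groups were not compared by this measure. All 12 markers listed for a T-cell leukaemia line were in the table, and their summed level was 44967 to 55425 without histidine and 58378 to 61202 at 100% on day 6. Of these 12, PTCRA stood at 0 to 8.14. Of the markers of other cells, CD79A (9400.4 to 22251), PDGFRB (617 to 1489.7), EBF1 (168 to 418) and CD79B (54.5 to 164) were present in every library, while PAX5, LYZ, MPO, COL1A1 and COL1A2 stood at 0 to 26.6. The B-cell list, with 5 of 7 genes in the table, summed to 9674 to 13269 without histidine, 11102 to 16935 at 12.5%, 19331 to 21275 at 25% and 15269.8 to 16901 at 100% on day 6. On day 9 it summed to 9716 to 11511 at 12.5%, 18984 to 22795 at 25% and 14625 to 18131 at 100%. The fibroblast list, with 4 of 5 genes in the table, summed to 618 to 627 without histidine, 781 to 899.8 at 12.5%, 1489.7 to 1492 at 25% and 1071 to 1268 at 100% on day 6. On day 9 it summed to 777 to 821 at 12.5%, 1199.7 to 1306 at 25% and 1329 to 1448 at 100%. In all 3 of these sums the libraries without histidine lay below those at 100% of day 6. Their part in the members' changes was not tested. The myeloid list, with 5 of 6 genes in the table, summed to 12.4 to 36.8 without histidine and 4.48 to 10.8 at 100% on day 6. The epithelial list had 5 of its 6 genes in the table. Its summed level exceeded 100 in 6 libraries, the replicates 1 and 2 at 100% on day 6, replicates 1 and 2 at 50% on day 6, and replicates 1 and 3 at 25% on day 9. The summed level of KRT8, KRT18 and KRT19 was 119 to 1410 in those 6 libraries and 0 to 60.3 in the other 19, and their part in the results was not tested beyond the fits without them given below. One no-histidine library, replicate 1, is titled day 6 but has a time label of day 9, and was kept at day 6. The 5.8S rRNA level was lowest at 12.5% on day 6, at 74.8 to 88.2, against 153 to 1180 at 100%.

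The replication genes were lower in cells without histidine. On day 6 without histidine 39 of the 46 members were lower than at 100% and 1, ORC4, was higher, against 16.5% of all genes tested lower and 13.3% higher. The median change of the members was -1.08, and that of all genes tested was 0.03. All libraries without histidine lay below all libraries at 100% for 39 members and above them for 3. This separation was not counted over all genes tested, so these 2 counts have no share to be read against. At 12.5% on day 6, 27 members were lower and 2 were higher, with a median change of -0.43, where 15.3% of all genes were lower and 11.7% higher. Of the 39 lower members 37 kept the call when each library in turn was left out. The other 2 lost it without no-histidine replicate 1, the library with the conflicting day label, POLD2 at -0.32 (adjusted p = 0.0774) and RPA2 at -0.34 (adjusted p = 0.0695). At 12.5% the 27 lower calls became 19 after rescaling by the upper quartile, which moved the median of all genes to 0.17, and 20 when the 5.8S rRNA level entered the fit. The 2 higher members, ORC3 and CLSPN, were 0 without 100% day 6 replicate 3 or 12.5% day 6 replicate 2, 1 without any one of the other libraries compared, and 0 when the 5.8S rRNA level entered the fit.

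**Figure D1:**
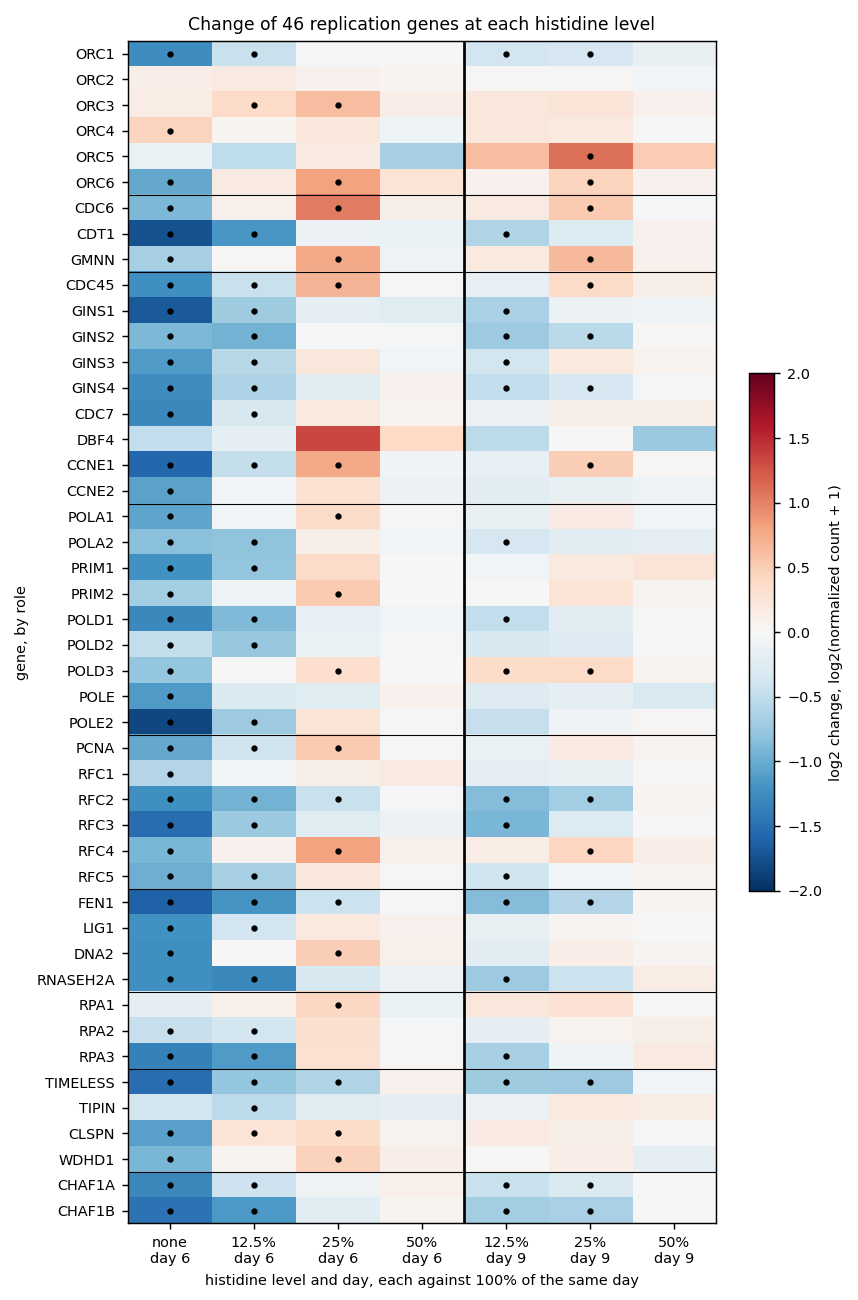
Log2 change of each of the 46 genes (rows, grouped by role) at each histidine level against 100% of the same day (columns), with blue for lower, red for higher, and a dot where the adjusted p was under 0.05. The no-histidine column is blue for all but 3 rows, ORC2, ORC3 and ORC4, the 25% columns hold both colours, and no dot stands in a 50% column.

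At 25% on day 6 more members were called higher than lower. On that day 15 members were higher at 25% than at 100% and 3 were lower, with a median change of 0.22, where 6.79% of all genes were higher and 6.92% lower. The count of lower members was thus near the share over all genes. The lower members were RFC2, a clamp loader subunit, FEN1, the flap nuclease, and TIMELESS, a fork protection factor. The count of higher members was 9 without 25% day 6 replicate 2 and 5 without 25% day 6 replicate 3, and the count of lower ones was 1 without 100% day 6 replicate 1 or without either 25% library. Without the 6 libraries high in keratin, which left 1 library at 100% on day 6, 6 members were higher and 1 was lower. Those still called higher in every fit that left out 1 library were ORC6, CDC6, GMNN, CDC45 and RFC4, and the one still called lower was TIMELESS.

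Calls on day 9 were made against the 100% libraries of that day. At 12.5%, 17 members were lower and 1, POLD3, was higher, with a median change of -0.21, where 11.5% of all genes were lower and 9.35% higher. At 25%, 8 were lower and 8 higher, with a median change of 0.04, where 8.76% of all genes were lower and 9.4% higher. The split at 25% was 4 lower and 9 higher after rescaling by the upper quartile, which moved the share of higher genes among all calls from 51.8% to 62.3%. Without the libraries high in keratin, which left 1 library at 25%, 4 members were lower and 1 was higher. The same rescaling moved the share of higher genes among all calls from 43.3% to 60.7% at 12.5% on day 6 and from 44.9% to 63.4% at 12.5% on day 9.

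At 50% no member passed on either day. In the limma fit, 0% of all genes tested were called on day 6 and 0.00532% on day 9. An unadjusted p under 0.05 was seen for 2 members on day 6, ORC5 (log2 change -0.66 ± 0.29) and RFC1 (0.18 ± 0.07), and for none on day 9. Of all genes tested, 695 (3.7%) were past that level on day 6 and 906 (4.82%) on day 9. The day 6 count of members was near that share. The members' median change was 0.00 on day 6 and 0.03 on day 9.

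Calls of single members also depended on scaling and on libraries that stand apart. For the members given in full below, rescaling by the upper quartile ended the falls of CCNE1, ORC1, PCNA, POLE2, RPA2 and TIPIN at 12.5% on day 6 (log2 change -0.59 to -0.23, adjusted p 0.0673 to 0.168). It also ended the rises of CLSPN, POLA1, POLD3, PRIM2 and WDHD1 at 25% on day 6 (0.30 to 0.49, adjusted p 0.0559 to 0.189). With the 5.8S rRNA level in the fit, CCNE1, CLSPN, ORC1, ORC3, POLE2, RPA2 and TIPIN lost their calls at 12.5% on day 6 (adjusted p 0.0782 to 0.343). Leaving out the libraries high in keratin left 1 library at 100% on day 6 and at 25% on day 9. In that fit CCNE1, ORC3, PCNA, POLE2, RPA2 and TIPIN lost their calls at 12.5% on day 6 (adjusted p 0.077 to 0.421). The same fit ended those of CCNE1, FEN1, ORC3, ORC6, PCNA, POLA1, POLD3, PRIM2, RFC2, RPA1 and WDHD1 at 25% on day 6 (adjusted p 0.0534 to 0.261). At 25% on day 9 it ended those of CCNE1, CDC45, CDC6, CHAF1A, ORC1, ORC5, ORC6, POLD3 and RFC4 (adjusted p 0.0965 to 0.39). Without histidine it ended those of ORC4 and RPA2. Every one of these values kept its sign. Some calls appeared when 1 library was left out. At 12.5% on day 6 ORC5 passed without 12.5% day 6 replicate 3 (-0.89, adjusted p = 0.0172). At 12.5% on day 9 POLE2 passed without 100% day 9 replicate 3 (-0.67, adjusted p = 0.0338), and CLSPN without 12.5% day 9 replicate 1 (0.29, adjusted p = 0.0351). At 25% on day 9 CDT1 passed without 100% day 9 replicate 2 (-0.41, adjusted p = 0.0295). RFC3 passed there without 100% day 9 replicate 1 (-0.38, adjusted p = 0.0359).

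**Figure D2:**
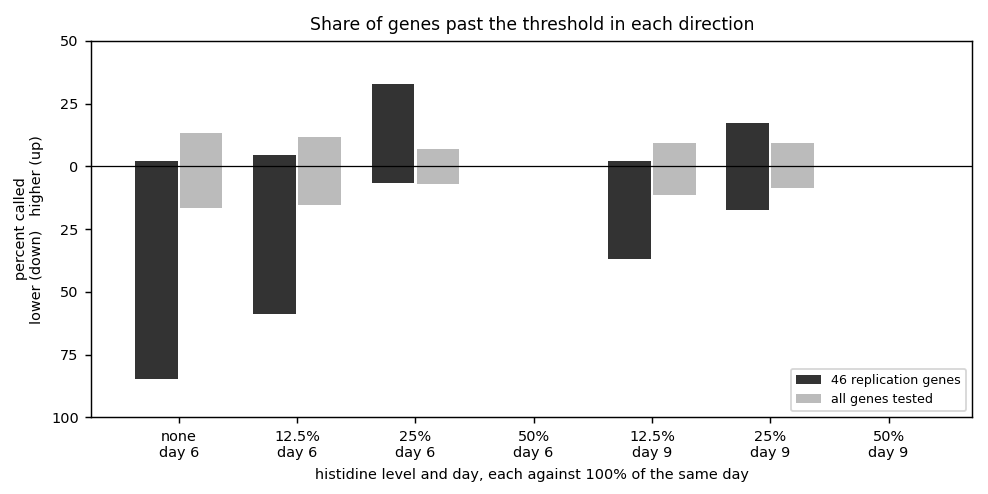
Percent of genes called higher (upward bars) and lower (downward bars) at each histidine level against 100% of the same day, for the 46 replication genes (dark) and all 18799 genes tested (light). The dark bars exceed the light ones downward without histidine and at 12.5% on both days, upward at 25% on day 6, and in both directions at 25% on day 9.

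Promoters were read to see whether members that moved together share letters. RefSeq promoters on GRCh38.p14, 250 bases before to 50 after each start, were held for 40 of the 46 members, in 49 promoters because 8 members have more than 1 start. The members without an entry were GINS4, CCNE2, POLD3, RPA2, RPA3 and DNA2. The letters TTTCCCGC, TTTCGCGC, TTTGCCGC and TTTGGCGC, which are forms of the E2F motif, were searched on both strands. At least 1 of them stood in 17 of the 49 members' promoters (34.7%), against 1164 of all 35116 promoters (3.31%). They stood in 15 of 40 promoters (37.5%) of members lower without histidine, against 2 of 9 (22.2%) of the other members. They stood in 6 of 18 promoters (33.3%) of members higher at 25% on day 6, against 11 of 31 (35.5%) of the rest. The CCAAT letters stood in 24 of 49 (49%), against 34.6% of all promoters. The letters TTTGAA or TTCGAA of the cell cycle homology region stood in 1 of 49 (2.04%), against 16.4%. A match is a description of the letters and not a site. The 5 promoters below, with E2F-type letters in capitals, belong to 3 members whose changes at 25% differed, CDC6, GMNN (its second start) and CDT1, and to FEN1 and ORC4 (its first start), which changed in opposite directions without histidine and whose windows hold none of these letters.
CDC6, chr17:40287629-40287928, plus strand: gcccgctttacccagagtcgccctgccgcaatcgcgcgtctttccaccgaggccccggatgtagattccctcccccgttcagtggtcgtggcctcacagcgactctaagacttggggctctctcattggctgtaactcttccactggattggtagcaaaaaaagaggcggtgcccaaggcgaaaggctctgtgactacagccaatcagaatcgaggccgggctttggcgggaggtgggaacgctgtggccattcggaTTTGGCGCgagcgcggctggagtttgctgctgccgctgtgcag
GMNN, chr6:24775163-24775462, plus strand: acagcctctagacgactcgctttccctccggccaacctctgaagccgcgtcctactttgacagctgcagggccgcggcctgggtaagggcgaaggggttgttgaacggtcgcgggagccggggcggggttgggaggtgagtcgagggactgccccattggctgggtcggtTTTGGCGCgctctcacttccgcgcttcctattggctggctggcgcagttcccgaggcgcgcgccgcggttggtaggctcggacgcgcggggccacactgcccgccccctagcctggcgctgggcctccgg
CDT1, chr16:88803539-88803838, plus strand: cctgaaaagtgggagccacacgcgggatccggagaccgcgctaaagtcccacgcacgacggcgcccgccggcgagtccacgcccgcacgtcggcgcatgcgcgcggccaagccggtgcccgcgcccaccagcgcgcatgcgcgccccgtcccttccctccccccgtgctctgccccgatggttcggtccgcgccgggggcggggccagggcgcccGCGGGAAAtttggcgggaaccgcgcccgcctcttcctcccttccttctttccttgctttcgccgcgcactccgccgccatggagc
FEN1, chr11:61792661-61792960, plus strand: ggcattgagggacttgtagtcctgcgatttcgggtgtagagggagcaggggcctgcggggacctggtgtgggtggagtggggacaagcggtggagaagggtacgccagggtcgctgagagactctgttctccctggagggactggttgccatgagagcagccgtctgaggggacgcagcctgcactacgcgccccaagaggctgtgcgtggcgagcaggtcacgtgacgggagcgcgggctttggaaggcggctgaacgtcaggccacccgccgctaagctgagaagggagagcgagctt
ORC4, chr2:148021502-148021801, minus strand: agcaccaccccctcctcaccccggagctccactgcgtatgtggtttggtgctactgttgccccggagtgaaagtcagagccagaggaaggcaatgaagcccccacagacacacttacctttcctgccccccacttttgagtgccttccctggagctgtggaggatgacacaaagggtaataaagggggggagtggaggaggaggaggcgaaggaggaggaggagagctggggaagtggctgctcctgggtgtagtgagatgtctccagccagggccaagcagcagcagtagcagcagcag

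The calls of the licensing factors differed across the levels. Whether these factors differ from each other was not tested. CDC6, the ATPase that helps load the helicase, had on day 6 948, 1077 and 1030.1 without histidine, 1689, 2130.0 and 2377 at 12.5%, 3987 and 3828 at 25%, 1921, 2429.9 and 1853 at 50% and 1903, 1823 and 1989.6 at 100%. Its libraries without histidine lay below all others of that day, and those at 25% lay above all others. CDC6 fell without histidine (log2 change -0.90 ± 0.11, adjusted p = 6.02e-07), rose at 25% (log2 change 1.04 ± 0.12, adjusted p = 3.38e-06) and did not pass at 12.5% (log2 change 0.10, adjusted p = 0.527). On day 9 CDC6 had 2995, 2806 and 2918 at 12.5%, 3661, 3458 and 4005 at 25%, 2636 and 2357 at 50% and 2541, 2686 and 2451 at 100%, with the 25% libraries again above all others. The day 9 rise at 25% was 0.53 ± 0.11 (adjusted p = 0.000957).

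GMNN, the gene of geminin, which binds CDT1 and keeps it from reloading the helicase, was likewise lowest without histidine and highest at 25%. Its values on day 6 were 652, 756 and 824 without histidine, 1001, 1244 and 1353 at 12.5%, 2027 and 1925 at 25%, 1153, 1147 and 984 at 50% and 1326, 1055 and 1139.8 at 100%. GMNN fell without histidine (log2 change -0.66 ± 0.12, adjusted p = 0.000102) and rose at 25% (log2 change 0.76 ± 0.13, adjusted p = 0.000273). On day 9 they were 1449.6, 1387 and 1583 at 12.5%, 2019.5, 2137 and 1923 at 25%, 1494 and 1252 at 50% and 1203, 1408 and 1278 at 100%, and the rise at 25% was 0.65 ± 0.12 (adjusted p = 0.000275). The libraries at 25% lay above all others on both days.

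CDT1, the loading factor that geminin restrains, was not called at 25% on either day. On day 6 it had 1767, 2459 and 2269 without histidine, 2682, 3365 and 3633 at 12.5%, 6792 and 6538 at 25%, 6842, 6162 and 6719 at 50% and 7174, 7140.0 and 7344 at 100%. CDT1 fell without histidine (log2 change -1.75 ± 0.12, adjusted p = 1.17e-10) and at 12.5% (log2 change -1.17 ± 0.12, adjusted p = 2.52e-07), and had a log2 change of -0.12 ± 0.14 at 25% (adjusted p = 0.664). The libraries without histidine and at 12.5% lay below all libraries at 25% and above. On day 9 its values were 5000.5, 4728 and 5105 at 12.5%, 6655, 6255 and 5613 at 25%, 8506 and 7489 at 50% and 8706, 6301 and 7698 at 100%, and it fell at 12.5% (log2 change -0.60 ± 0.12, adjusted p = 0.000875).

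**Figure D3:**
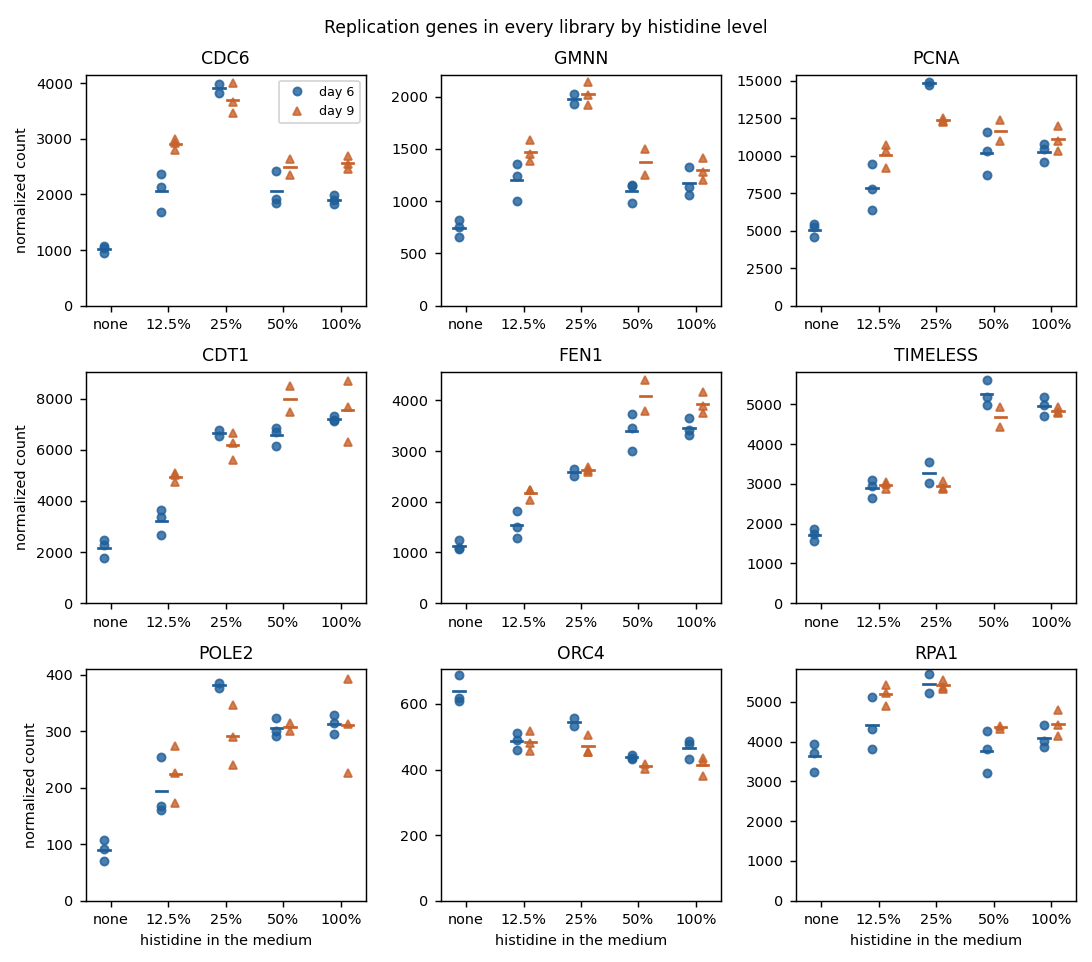
Normalized counts of 9 replication genes in every library (circles, day 6; triangles, day 9; bars, group means) by histidine level. CDC6, GMNN and PCNA peak at 25%, CDT1, FEN1, TIMELESS and POLE2 are lowest without histidine, ORC4 is highest there, and RPA1 without histidine overlaps its 100% libraries on day 6.

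Within the origin recognition complex the calls of the subunits split. Of 6 subunits, 2 were lower and 1 was higher without histidine, with changes from -1.24 to 0.45. Of all genes tested, 16.5% were lower and 13.3% higher in that comparison, and the count of 1 higher subunit was near that share. The same shares apply to the counts without histidine given by role below. ORC1, the ATPase subunit whose level varies over the cell cycle, had on day 6 554, 573 and 507 without histidine, 833, 993 and 1034 at 12.5%, 1279 and 1238 at 25%, 1295, 1319 and 1266 at 50% and 1251, 1256 and 1356 at 100%. Its libraries without histidine lay below all others, and it fell (log2 change -1.24 ± 0.09, adjusted p = 2.18e-10), also at 12.5% (log2 change -0.44 ± 0.09, adjusted p = 0.000758), where the call ended after rescaling by the upper quartile (-0.31, adjusted p = 0.0853) and when the 5.8S rRNA level entered the fit (-0.27, adjusted p = 0.0782). On day 9 ORC1 had 1114, 1228 and 1229 at 12.5%, 1155, 1174 and 1347 at 25%, 1287 and 1513 at 50% and 1519, 1549 and 1564 at 100%, and fell at 12.5% (log2 change -0.38 ± 0.09, adjusted p = 0.00361) and at 25% (log2 change -0.34 ± 0.09, adjusted p = 0.00958), the last of which ended without 25% day 9 replicate 1 (log2 change -0.30, adjusted p = 0.0523). Both day 9 calls of ORC1 ended after rescaling by the upper quartile, with changes of -0.26 at 12.5% (adjusted p = 0.165) and -0.29 at 25% (adjusted p = 0.147).

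ORC6, the smallest subunit, had on day 6 187, 307 and 234 without histidine, 466, 564 and 632 at 12.5%, 813 and 884 at 25%, 585, 636 and 547 at 50% and 463, 515 and 477 at 100%. The libraries without histidine lay below, and those at 25% above, all libraries at 100%. ORC6 fell without histidine (log2 change -1.02 ± 0.14, adjusted p = 4.55e-06) and rose at 25% (log2 change 0.81 ± 0.16, adjusted p = 0.00104). On day 9 ORC6 had 683, 743 and 739 at 12.5%, 922, 937 and 913 at 25%, 805 and 646 at 50% and 605, 778 and 663 at 100%, and its rise at 25% (log2 change 0.44 ± 0.14, adjusted p = 0.0291) ended without any one of 100% day 9 replicate 1, 100% day 9 replicate 3, 25% day 9 replicate 1, 25% day 9 replicate 2 and 25% day 9 replicate 3 (log2 change 0.36 to 0.45, adjusted p 0.0607 to 0.13).

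ORC4 was the one member that rose without histidine. It had on day 6 689.9, 619 and 609 without histidine, 490.4, 459 and 510.0 at 12.5%, 558 and 534 at 25%, 444, 436 and 431 at 50% and 479, 431 and 488 at 100%. The no-histidine libraries lay above all others, and the change was 0.45 (adjusted p = 0.000407). Without the libraries high in keratin it was 0.39 and did not pass (adjusted p = 0.066). On day 9 ORC4 had 479.7, 455 and 517 at 12.5%, 454, 453 and 504 at 25%, 418 and 403 at 50% and 424, 434 and 379 at 100% and did not pass at any level, with 0.23 ± 0.09 at 12.5% (adjusted p = 0.0729).

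ORC3 rose at 25% and at 12.5% on day 6. Its values were 377, 442 and 374 without histidine, 428, 465 and 506 at 12.5%, 533 and 558 at 25%, 445, 415 and 333 at 50% and 366, 358 and 350.0 at 100%. The libraries at 12.5% and 25% lay above all 3 libraries at 100%. The rise was 0.61 ± 0.14 at 25% (adjusted p = 0.00412) and ended without 25% day 6 replicate 3 (log2 change 0.57, adjusted p = 0.0581). At 12.5% it was 0.38 ± 0.12 (adjusted p = 0.0259) and ended without any one of 100% day 6 replicate 1, 100% day 6 replicate 2, 100% day 6 replicate 3, 12.5% day 6 replicate 2 and 12.5% day 6 replicate 3 (log2 change 0.32 to 0.39, adjusted p 0.0513 to 0.0958). On day 9 ORC3 had 444, 554 and 575 at 12.5%, 510.5, 540.3 and 553 at 25%, 499 and 443 at 50% and 465, 502 and 379.9 at 100%, and no level passed.

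ORC2 and ORC5 did not pass on day 6. ORC2 had 709.8, 761 and 687 without histidine, 763, 679.7 and 799.7 at 12.5%, 679 and 712 at 25%, 662, 699.6 and 692 at 50% and 655, 639 and 674 at 100% on that day and 672, 734 and 710.0 at 12.5%, 668, 715 and 755 at 25%, 754 and 600.1 at 50% and 708, 780.5 and 609 at 100% on day 9, with no level past the threshold. ORC5, an ATP-binding subunit, had on day 6 384, 372 and 269 without histidine, 257, 155 and 439 at 12.5%, 345 and 501 at 25%, 296, 279 and 153 at 50% and 399, 358 and 355 at 100%. Its replicates at 12.5% were far apart. On day 9 ORC5 had 432, 362 and 451 at 12.5%, 646, 508 and 592 at 25%, 429 and 344 at 50% and 378, 199 and 263 at 100%. It rose at 25% on day 9 (log2 change 1.10 ± 0.29, adjusted p = 0.00831), with all 3 libraries above those at 100%, and the call ended without 100% day 9 replicate 2 (log2 change 0.88, adjusted p = 0.0629).

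Genes that turn loaded helicase into forks were lower without histidine in 8 of 9 cases, with changes from -1.68 to -0.49. CDC45, the helicase cofactor, had on day 6 813, 861 and 872 without histidine, 1246, 1519.7 and 1652 at 12.5%, 3180.1 and 3213 at 25%, 2054, 2215 and 1821 at 50% and 1934, 2026 and 2029 at 100%. CDC45 fell without histidine (log2 change -1.23 ± 0.09, adjusted p = 1.71e-10) and at 12.5% (log2 change -0.45 ± 0.09, adjusted p = 0.000496), and rose at 25% (log2 change 0.68 ± 0.10, adjusted p = 4.33e-05). The groups without histidine and at 12.5% lay wholly below 100%, and the 25% group wholly above it. On day 9 CDC45 had 1915, 1965 and 1991 at 12.5%, 2913, 2793 and 2854 at 25%, 2483 and 2269 at 50% and 2121, 2158 and 2313 at 100%, and it rose at 25% (log2 change 0.38 ± 0.09, adjusted p = 0.00333).

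CCNE1, cyclin E1, which activates CDK2 for firing, had on day 6 116, 123 and 81 without histidine, 213, 202 and 269 at 12.5%, 513 and 546 at 25%, 285, 309.8 and 308 at 50% and 303, 361 and 285 at 100%. It fell without histidine (log2 change -1.57 ± 0.16, adjusted p = 4.34e-08) and rose at 25% (log2 change 0.75 ± 0.18, adjusted p = 0.00502), the rise ending without 25% day 6 replicate 3 (log2 change 0.70, adjusted p = 0.0678). Its fall at 12.5% (log2 change -0.48 ± 0.16, adjusted p = 0.0267) ended without any one of 100% day 6 replicate 2, 12.5% day 6 replicate 1 and 12.5% day 6 replicate 2 (log2 change -0.43 to -0.38, adjusted p 0.0931 to 0.125). On day 9 CCNE1 had 246, 234 and 301 at 12.5%, 386, 389 and 458 at 25%, 342 and 260.1 at 50% and 263, 305 and 310.2 at 100%, and its rise at 25% (log2 change 0.49 ± 0.16, adjusted p = 0.0325) ended without any one of 100% day 9 replicate 1, 100% day 9 replicate 2, 100% day 9 replicate 3, 25% day 9 replicate 1, 25% day 9 replicate 2 and 25% day 9 replicate 3 (log2 change 0.41 to 0.53, adjusted p 0.0509 to 0.131).

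GINS1, a subunit of the GINS complex, had on day 6 338, 594 and 527 without histidine, 794, 968 and 1041 at 12.5%, 1398 and 1299 at 25%, 1475, 1249 and 1177 at 50% and 1808, 1208 and 1620.4 at 100%. GINS1 fell without histidine (log2 change -1.68 ± 0.17, adjusted p = 4.1e-08) and at 12.5% (log2 change -0.71 ± 0.17, adjusted p = 0.00256). Libraries of both groups lay below all libraries at 100%. On day 9 GINS1 had 1171, 1043 and 1062 at 12.5%, 1502, 1609.8 and 1639.7 at 25%, 1413 and 1872 at 50% and 1735, 1894 and 1536 at 100%, and it fell at 12.5% (log2 change -0.65 ± 0.17, adjusted p = 0.00665). The 4 GINS genes were each called lower without histidine and at 12.5% on both days. At 12.5% on day 9 the call of GINS3 (-0.37) ended without any one of 100% day 9 replicate 2, 100% day 9 replicate 3, 12.5% day 9 replicate 2 and 12.5% day 9 replicate 3 (log2 change -0.40 to -0.29, adjusted p 0.0708 to 0.181). At 25% on day 9 GINS2 (-0.54) and GINS4 (-0.34) were lower too, and their calls ended without any one of 100% day 9 replicate 2, 100% day 9 replicate 3, 25% day 9 replicate 1 and 25% day 9 replicate 2 (log2 change -0.55 to -0.41, adjusted p 0.0712 to 0.173) and without 100% day 9 replicate 3 (log2 change -0.28, adjusted p = 0.0614).

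CDC7, the kinase, fell without histidine (log2 change -1.29 ± 0.08, adjusted p = 2.26e-11) and at 12.5% on day 6 (log2 change -0.32 ± 0.08, adjusted p = 0.0042). The CDC7 call at 12.5% held when each library was left out but ended after rescaling by the upper quartile. DBF4, the activator of that kinase, had the lowest mean of the members. It had on day 6 37.9, 51.8 and 10 without histidine, 37.6, 18 and 57.1 at 12.5%, 98.3 and 99.1 at 25%, 55.2, 70.2 and 35 at 50% and 57.8, 43.7 and 22.9 at 100%, and on day 9 39, 53.1 and 55 at 12.5%, 52, 70.2 and 95.4 at 25%, 75.5 and 23 at 50% and 61.7, 61.8 and 91.7 at 100%. Its replicates were far apart in several groups. No level passed, with -0.49 ± 0.50 without histidine (adjusted p = 0.512) and 1.33 ± 0.56 at 25% (adjusted p = 0.129). CCNE2, cyclin E2, fell without histidine (log2 change -1.07 ± 0.11, adjusted p = 4.48e-08), and had -0.06 ± 0.11 at 12.5% (adjusted p = 0.709).

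All 9 polymerase and primase genes were lower without histidine, with changes from -1.82 to -0.47. POLE2, the second subunit of polymerase epsilon, had on day 6 90.5, 69.3 and 108 without histidine, 159.7, 167 and 254 at 12.5%, 377 and 385 at 25%, 324, 291 and 299.9 at 50% and 314, 295 and 329 at 100%. POLE2 fell without histidine (log2 change -1.82 ± 0.21, adjusted p = 2.95e-07), the largest fall among the 46 members. Its libraries without histidine lay below all others. At 12.5% it fell (log2 change -0.72 ± 0.21, adjusted p = 0.0112), and the call ended without any one of 12.5% day 6 replicate 1 and 12.5% day 6 replicate 2 (log2 change -0.63 to -0.60, adjusted p 0.0566 to 0.0684). On day 9 POLE2 had 173, 225 and 274 at 12.5%, 239.6, 289.9 and 347 at 25%, 315 and 300.4 at 50% and 313, 393 and 226 at 100%, and no level passed.

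POLD1, the catalytic subunit of polymerase delta, had on day 6 2169, 2707 and 2549 without histidine, 2809.9, 3569 and 3475 at 12.5%, 5387 and 5285 at 25%, 6054, 5776 and 5517 at 50% and 6467, 5797 and 5825 at 100%. The order of the group means followed the histidine level. POLD1 fell without histidine (log2 change -1.29 ± 0.09, adjusted p = 8.2e-11) and at 12.5% (log2 change -0.88 ± 0.09, adjusted p = 1.3e-07). On day 9 POLD1 had 4315, 4351 and 4407 at 12.5%, 5359, 5356 and 5112 at 25%, 6298 and 6190.4 at 50% and 6012, 6048 and 6452 at 100%, and fell at 12.5% (log2 change -0.50 ± 0.09, adjusted p = 0.000201). POLD3, an accessory subunit of the same enzyme, was called in both directions. On day 6 POLD3 had 453, 441 and 414 without histidine, 724, 716 and 777 at 12.5%, 851 and 1031 at 25%, 786, 722 and 726 at 50% and 779, 729.6 and 725 at 100%, and on day 9 965, 1132 and 1045 at 12.5%, 1014, 1031 and 1107 at 25%, 884 and 812 at 50% and 786, 876 and 768 at 100%. POLD3 fell without histidine (log2 change -0.77 ± 0.09, adjusted p = 3.88e-07) and rose on day 9 at 12.5% (log2 change 0.37 ± 0.09, adjusted p = 0.00405) and at 25% (log2 change 0.38 ± 0.09, adjusted p = 0.00387), with libraries above all those at 100%. Its day 6 rise at 25% (log2 change 0.33 ± 0.10, adjusted p = 0.0268) ended without any one of 100% day 6 replicate 2, 100% day 6 replicate 3 and 25% day 6 replicate 3 (log2 change 0.19 to 0.32, adjusted p 0.0734 to 0.414).

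POLA1, the catalytic subunit of polymerase alpha, had 1063, 987 and 827 without histidine, 2674 and 2519.6 at 25% and 2109.7, 1956 and 1908 at 100% on day 6. POLA1 fell without histidine (log2 change -1.06 ± 0.11, adjusted p = 9.51e-08). Its rise at 25% (log2 change 0.38 ± 0.12, adjusted p = 0.0415) ended without any one of 100% day 6 replicate 1, 100% day 6 replicate 2, 100% day 6 replicate 3, 25% day 6 replicate 2 and 25% day 6 replicate 3 (log2 change 0.34 to 0.43, adjusted p 0.0514 to 0.239). PRIM2, the large primase subunit, had 283, 264 and 288 without histidine, 643 and 650.3 at 25% and 449.7, 446 and 461 at 100% on day 6. It fell without histidine (log2 change -0.70 ± 0.14, adjusted p = 0.000401), and its rise at 25% (log2 change 0.52 ± 0.16, adjusted p = 0.0276) ended without any one of 100% day 6 replicate 1, 100% day 6 replicate 2, 100% day 6 replicate 3, 25% day 6 replicate 2 and 25% day 6 replicate 3 (log2 change 0.51 to 0.53, adjusted p 0.054 to 0.148). For both genes the 25% libraries lay above, and the no-histidine libraries below, all libraries at 100%. At 12.5% on day 6 the partner subunits POLA2 (-0.81) and PRIM1 (-0.79) were lower, and POLA1 (-0.06) and PRIM2 (-0.10) did not pass. Whether the partners differ from each other was not tested.

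The clamp and its loader were lower without histidine in 6 of 6 genes, with changes from -1.52 to -0.59. PCNA, the sliding clamp, had the highest mean of the members. It had on day 6 4565, 5420.4 and 5219 without histidine, 6373, 7751 and 9457 at 12.5%, 14742 and 14904 at 25%, 10322, 11565 and 8719.6 at 50% and 10474, 9552 and 10787 at 100%. PCNA fell without histidine (log2 change -1.02 ± 0.12, adjusted p = 3.2e-07) and rose at 25% (log2 change 0.53 ± 0.13, adjusted p = 0.00694), the rise ending without any one of 25% day 6 replicate 2 and 25% day 6 replicate 3 (log2 change 0.52 to 0.54, adjusted p 0.0543 to 0.066). The 25% libraries lay above all others and the no-histidine libraries below all others. Its fall at 12.5% (log2 change -0.40 ± 0.12, adjusted p = 0.012) ended without any one of 100% day 6 replicate 3 and 12.5% day 6 replicate 1 (log2 change -0.37 to -0.26, adjusted p 0.0512 to 0.115). On day 9 PCNA had 10696, 9152 and 10321 at 12.5%, 12309.9, 12281 and 12497 at 25%, 12363 and 10990.3 at 50% and 10324, 11973 and 10976 at 100%, and no level passed.

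Of the small loader subunits, RFC4 and RFC2 moved in opposite ways at 25%, while RFC3 and RFC5 did not pass there on day 6. RFC4 had on day 6 679, 665 and 762 without histidine, 1211, 1409.6 and 1617 at 12.5%, 2307 and 2304 at 25%, 1432, 1583 and 1242 at 50% and 1383, 1322 and 1264 at 100%, and RFC2 had 494, 585 and 551 without histidine, 602, 662 and 725 at 12.5%, 943 and 923 at 25%, 1191, 1449.9 and 1081 at 50% and 1427, 1205 and 1187 at 100%. RFC4 fell without histidine (log2 change -0.92 ± 0.10, adjusted p = 1.21e-07) and rose at 25% (log2 change 0.80 ± 0.11, adjusted p = 2.14e-05). RFC2 fell without histidine (log2 change -1.23 ± 0.11, adjusted p = 8.08e-09), at 12.5% (log2 change -0.94 ± 0.11, adjusted p = 1.46e-06) and at 25% (log2 change -0.44 ± 0.12, adjusted p = 0.0171), the last of which ended without any one of 100% day 6 replicate 1, 25% day 6 replicate 2 and 25% day 6 replicate 3 (log2 change -0.46 to -0.36, adjusted p 0.0894 to 0.119). At 25% all RFC4 libraries lay above, and all RFC2 libraries below, those at 100%.

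On day 9 the opposite changes of these subunits at 25% were seen again. RFC4 had 1742, 1721 and 1849 at 12.5%, 2216, 2088 and 2156 at 25%, 1835 and 1680.4 at 50% and 1514, 1717 and 1560.0 at 100%, and RFC2 had 896, 807 and 972 at 12.5%, 977, 949 and 1046 at 25%, 1747 and 1601 at 50% and 1466, 1750.4 and 1628 at 100%. RFC4 rose at 25% (log2 change 0.43 ± 0.10, adjusted p = 0.00262). RFC2 fell at 12.5% (log2 change -0.86 ± 0.11, adjusted p = 5.81e-06) and at 25% (log2 change -0.70 ± 0.11, adjusted p = 6.99e-05).

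RFC3 had on day 6 267, 273 and 232 without histidine, 399.6, 434 and 486 at 12.5%, 673 and 569 at 25%, 707, 729 and 607 at 50% and 754, 706 and 750.0 at 100%. RFC3 fell without histidine (log2 change -1.52 ± 0.11, adjusted p = 3.85e-10) and at 12.5% (log2 change -0.75 ± 0.11, adjusted p = 3.5e-05), with both groups below all libraries at 100%. On day 9 RFC3 had 419, 478 and 407 at 12.5%, 655, 668 and 701 at 25%, 805 and 879.7 at 50% and 719, 962 and 802 at 100%, and fell at 12.5% (log2 change -0.92 ± 0.11, adjusted p = 3.33e-06). RFC1, the large subunit, fell without histidine (log2 change -0.59 ± 0.07, adjusted p = 1.5e-06). RFC5 fell without histidine (log2 change -0.97 ± 0.11, adjusted p = 3.58e-07), at 12.5% on day 6 (log2 change -0.67 ± 0.11, adjusted p = 9.65e-05) and at 12.5% on day 9 (log2 change -0.40 ± 0.11, adjusted p = 0.012), where the call ended without 100% day 9 replicate 2 (log2 change -0.36, adjusted p = 0.0551).

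Of the genes that finish the lagging strand, 4 of 4 were lower without histidine, with changes from -1.62 to -1.21. FEN1, the nuclease that trims flaps, had on day 6 1063, 1243 and 1083 without histidine, 1287, 1508 and 1826 at 12.5%, 2643 and 2511 at 25%, 3447, 3738 and 2992 at 50% and 3652, 3416 and 3324 at 100%. Its group means followed the histidine level, and libraries at every level under 50% lay below all libraries at 100%. FEN1 fell without histidine (log2 change -1.62 ± 0.10, adjusted p = 4.01e-11), at 12.5% (log2 change -1.18 ± 0.10, adjusted p = 3.14e-08) and at 25% (log2 change -0.43 ± 0.12, adjusted p = 0.0155). The 25% call ended without any one of 100% day 6 replicate 1, 25% day 6 replicate 2 and 25% day 6 replicate 3 (log2 change -0.46 to -0.39, adjusted p 0.0601 to 0.137). On day 9 FEN1 had 2225, 2241 and 2039 at 12.5%, 2692, 2578 and 2629.9 at 25%, 4393 and 3782 at 50% and 3742, 4164 and 3889 at 100%, and fell at 12.5% (log2 change -0.86 ± 0.10, adjusted p = 2.83e-06) and at 25% (log2 change -0.58 ± 0.10, adjusted p = 0.000314).

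DNA2, a nuclease for long flaps, had on day 6 348, 364 and 365 without histidine, 761, 809.8 and 965 at 12.5%, 1100.3 and 1243 at 25%, 891, 929 and 867 at 50% and 884, 843 and 781 at 100%. DNA2 fell without histidine (log2 change -1.22 ± 0.09, adjusted p = 3.78e-10), and at 12.5% its change was 0.01 ± 0.09 (adjusted p = 0.951). Its rise at 25% (log2 change 0.49 ± 0.10, adjusted p = 0.00189) ended without 25% day 6 replicate 3 (log2 change 0.40, adjusted p = 0.0658). The no-histidine libraries lay below all others. RNASEH2A, the catalytic subunit of the enzyme that removes RNA primers, had on day 6 542, 928 and 836 without histidine, 576, 689 and 914 at 12.5%, 1441 and 1363 at 25%, 1616, 1866 and 1389 at 50% and 1768, 1669 and 1818 at 100%. RNASEH2A fell without histidine (log2 change -1.22 ± 0.16, adjusted p = 2.57e-06) and at 12.5% (log2 change -1.29 ± 0.16, adjusted p = 3.05e-06), and these groups overlapped each other. On day 9 RNASEH2A had 1274, 1086 and 1305 at 12.5%, 1525, 1439 and 1476 at 25%, 2488 and 1992 at 50% and 1884, 2031 and 2092 at 100%, and fell at 12.5% (log2 change -0.72 ± 0.16, adjusted p = 0.0023). LIG1, the ligase, fell without histidine (log2 change -1.21 ± 0.08, adjusted p = 3.84e-11) and at 12.5% on day 6 (log2 change -0.38 ± 0.08, adjusted p = 0.000705). The LIG1 call at 12.5% held when each library was left out but ended after rescaling by the upper quartile.

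Of the 3 subunits of RPA, which coats single-stranded DNA, 2 were called lower without histidine. Whether the subunits differ from each other was not tested. RPA1, the large subunit, had on day 6 3225, 3939 and 3725 without histidine, 3823, 4315 and 5125 at 12.5%, 5692 and 5213 at 25%, 3815, 4266 and 3201 at 50% and 4419, 3859.7 and 4024 at 100%. Its no-histidine and 100% libraries overlapped, and the change did not pass (-0.18 ± 0.11, adjusted p = 0.223). It rose at 25% (log2 change 0.41 ± 0.12, adjusted p = 0.021), and the call ended without any one of 100% day 6 replicate 2, 100% day 6 replicate 3, 25% day 6 replicate 2 and 25% day 6 replicate 3 (log2 change 0.35 to 0.48, adjusted p 0.0564 to 0.192). On day 9 RPA1 had 5433, 5234 and 4897 at 12.5%, 5562, 5324 and 5371 at 25%, 4325 and 4390.4 at 50% and 4129, 4794 and 4414 at 100%, and no level passed.

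RPA3, the small subunit, had on day 6 135, 212 and 246 without histidine, 172, 234 and 267 at 12.5%, 588 and 628 at 25%, 468, 658 and 407 at 50% and 475, 469.7 and 523 at 100%. It fell without histidine (log2 change -1.35 ± 0.20, adjusted p = 1.17e-05) and at 12.5% (log2 change -1.14 ± 0.20, adjusted p = 0.000147), and both groups lay below all libraries at 100%. On day 9 RPA3 had 437, 311 and 392 at 12.5%, 560.5, 547 and 576 at 25%, 808 and 563 at 50% and 569, 634 and 583 at 100%, and its fall at 12.5% (log2 change -0.66 ± 0.20, adjusted p = 0.0191) ended without any one of 100% day 9 replicate 2 and 12.5% day 9 replicate 2 (log2 change -0.61 to -0.52, adjusted p 0.069 to 0.109). RPA2, the middle subunit, had 895, 1122 and 1164 without histidine, 911, 1076 and 1463 at 12.5% and 1514, 1337 and 1505 at 100% on day 6. RPA2 fell without histidine (log2 change -0.46 ± 0.13, adjusted p = 0.00892), and the call ended without no-histidine day 6 replicate 1 (log2 change -0.34, adjusted p = 0.0695). At 12.5%, where its libraries overlap those at 100%, the fall (log2 change -0.36 ± 0.13, adjusted p = 0.0418) ended without any one of 100% day 6 replicate 1, 100% day 6 replicate 3, 12.5% day 6 replicate 1 and 12.5% day 6 replicate 2 (log2 change -0.34 to -0.21, adjusted p 0.115 to 0.283).

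Among the fork protection genes 3 of 4 were lower without histidine, with changes from -1.52 to -0.37. TIMELESS, which with TIPIN holds the helicase and polymerase together, had on day 6 1874, 1741 and 1557 without histidine, 2643, 3100.4 and 2944 at 12.5%, 3536 and 3016 at 25%, 5609, 4983 and 5194 at 50% and 5175, 4972 and 4698 at 100%. The libraries at 25% and below lay under all libraries at 50% and 100%. TIMELESS fell without histidine (log2 change -1.52 ± 0.08, adjusted p = 2.96e-12), at 12.5% (log2 change -0.77 ± 0.08, adjusted p = 4.24e-07) and at 25% (log2 change -0.60 ± 0.09, adjusted p = 0.000101). On day 9 TIMELESS had 2986, 3039 and 2858 at 12.5%, 3076, 2862 and 2888 at 25%, 4416 and 4922 at 50% and 4937, 4773 and 4793 at 100%, and fell at 12.5% (log2 change -0.71 ± 0.08, adjusted p = 1.77e-06) and at 25% (log2 change -0.72 ± 0.08, adjusted p = 1.78e-06).

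TIPIN, its partner, had on day 6 213, 167 and 175 without histidine, 163, 153 and 181 at 12.5%, 196 and 207 at 25%, 189, 229 and 210.0 at 50% and 272, 236 and 211 at 100%. It did not pass without histidine (-0.37 ± 0.16, adjusted p = 0.0861), where the groups overlapped, but passed when no-histidine day 6 replicate 1, the library with the conflicting day label, was left out (log2 change -0.48, adjusted p = 0.0482). Its fall at 12.5% (log2 change -0.53 ± 0.16, adjusted p = 0.0174) ended without any one of 100% day 6 replicate 1, 12.5% day 6 replicate 1 and 12.5% day 6 replicate 2 (log2 change -0.52 to -0.43, adjusted p 0.0502 to 0.093). On day 9 TIPIN had 223, 238 and 275 at 12.5%, 253, 274 and 398 at 25%, 297 and 289 at 50% and 233, 322 and 247 at 100%, and no level passed.

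CLSPN, claspin, which passes the checkpoint signal to CHK1, had on day 6 1253, 1287 and 1203 without histidine, 3197, 3389 and 3043 at 12.5%, 3394 and 3392 at 25%, 2745, 2545 and 3051 at 50% and 2804, 2798 and 2365 at 100%. CLSPN fell without histidine (log2 change -1.09 ± 0.10, adjusted p = 6.43e-09), and its libraries at 12.5% and 25% lay above all those at 100%. The rise at 12.5% (log2 change 0.28 ± 0.10, adjusted p = 0.0356) ended without any one of 100% day 6 replicate 3, 12.5% day 6 replicate 1 and 12.5% day 6 replicate 2 (log2 change 0.19 to 0.28, adjusted p 0.0786 to 0.191). The rise at 25% (log2 change 0.36 ± 0.11, adjusted p = 0.0272) ended without any one of 100% day 6 replicate 3, 25% day 6 replicate 2 and 25% day 6 replicate 3 (log2 change 0.28 to 0.36, adjusted p 0.129 to 0.139). On day 9 CLSPN had 3001, 3848 and 3861 at 12.5%, 3713, 3381 and 3124 at 25%, 3037 and 3107 at 50% and 3146, 3024 and 3290.4 at 100%, and no level passed. WDHD1, which ties polymerase alpha to the helicase, had on day 6 680.2, 613 and 526 without histidine, 1196, 1144 and 1215 at 12.5%, 1609 and 1526 at 25%, 1308, 1146 and 1291 at 50% and 1304, 1039.7 and 1087 at 100%. WDHD1 fell without histidine (log2 change -0.92 ± 0.11, adjusted p = 5.4e-07), and its rise at 25% (log2 change 0.46 ± 0.12, adjusted p = 0.0113) ended without any one of 100% day 6 replicate 2, 25% day 6 replicate 2 and 25% day 6 replicate 3 (log2 change 0.40 to 0.50, adjusted p 0.0559 to 0.111).

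The chromatin assembly genes CHAF1A and CHAF1B encode the subunits of the factor that places new histones behind the fork. CHAF1A had on day 6 2147, 2159 and 2192 without histidine, 3805, 4125 and 3912 at 12.5%, 5014 and 4857 at 25%, 5638, 5504 and 5861 at 50% and 5413, 5524 and 4964 at 100%. CHAF1A fell without histidine (log2 change -1.29 ± 0.07, adjusted p = 2.35e-12) and at 12.5% (log2 change -0.42 ± 0.07, adjusted p = 7.4e-05), with those groups below all libraries at 100%. On day 9 CHAF1A had 4355, 4673 and 4209 at 12.5%, 5118, 4974 and 4733 at 25%, 6286 and 5691 at 50% and 5871, 5829.6 and 6382 at 100%, and fell at 12.5% (log2 change -0.45 ± 0.07, adjusted p = 4.92e-05) and at 25% (log2 change -0.29 ± 0.07, adjusted p = 0.0045). The call at 25% ended after rescaling by the upper quartile (-0.24, adjusted p = 0.103) and without the libraries high in keratin (-0.28, adjusted p = 0.14).

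CHAF1B had on day 6 425, 419 and 453 without histidine, 505, 547 and 569 at 12.5%, 1004 and 1043 at 25%, 1208, 1338 and 1202 at 50% and 1219, 1179 and 1194 at 100%. It fell without histidine (log2 change -1.47 ± 0.10, adjusted p = 8.82e-11) and at 12.5% (log2 change -1.15 ± 0.10, adjusted p = 2.46e-08), and at 25% its change was -0.23 ± 0.11 (adjusted p = 0.204). All its libraries at 25% lay below those at 100%. On day 9 CHAF1B had 864, 820.1 and 819 at 12.5%, 729, 848 and 1058 at 25%, 1274 and 1381 at 50% and 1324, 1449 and 1311 at 100%, and fell at 12.5% (log2 change -0.70 ± 0.10, adjusted p = 1.96e-05) and at 25% (log2 change -0.65 ± 0.10, adjusted p = 5.53e-05).

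Neighbouring levels were compared to see where the members change. Without histidine against 12.5% on day 6, 30 members were lower and 1, ORC4 (0.39), was higher, with a median of -0.61, where 8.26% of all genes were lower and 7% higher. The falls of CLSPN (log2 change -1.36 ± 0.10, adjusted p = 7.31e-10), DNA2 (log2 change -1.23 ± 0.09, adjusted p = 1.54e-09) and ORC6 (log2 change -1.21 ± 0.14, adjusted p = 1.57e-06) were the largest. RNASEH2A (0.07), GINS2 (0.04) and POLA2 (-0.03) did not pass in this step (adjusted p = 0.835, 0.925 and 0.878). At 12.5% against 100% on day 6 these 3 genes had -1.29 ± 0.16, -0.94 ± 0.17 and -0.81 ± 0.10, and CLSPN, DNA2 and ORC6 had 0.28 ± 0.10, 0.01 ± 0.09 and 0.18 ± 0.14. Both comparisons use the same libraries at 12.5%. The count of higher members was 2 without no-histidine day 6 replicate 1 and 0 after rescaling by the upper quartile, which moved the share of higher genes among all calls from 45.9% to 33.1%.

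At 12.5% against 25% on day 6, 35 members were lower and none was higher, with a median of -0.62, where 10.7% of all genes were lower and 7.08% higher. The largest called falls were those of RPA3 (log2 change -1.46 ± 0.22, adjusted p = 0.000117), CCNE1 (log2 change -1.22 ± 0.18, adjusted p = 6.59e-05), PRIM1 (log2 change -1.18 ± 0.17, adjusted p = 6.88e-05) and CDC45 (log2 change -1.13 ± 0.10, adjusted p = 1.74e-07). After rescaling by the upper quartile 22 members were lower, and the share of higher genes among all calls moved from 39.8% to 66.5%. At 25% against 50% on day 6, 4 were lower and 14 higher, where 6.81% of all genes were lower and 7.19% higher. The count of lower members in this step was near the share over all genes. The calls that held when each library was left out were TIMELESS, lower, and CDC6, GMNN, CDC45, CCNE1 and RFC4, higher. The lower ones were TIMELESS (-0.69), RFC2 (-0.40), FEN1 (-0.39) and GINS4 (-0.30). CDC6 (log2 change 0.93 ± 0.12, adjusted p = 1.43e-05) and GMNN (log2 change 0.86 ± 0.13, adjusted p = 7.66e-05) rose most. The count of lower members was 1 without 25% day 6 replicate 2 or 3 or without 50% day 6 replicate 1 or 2. The count of higher ones was 8 without 25% day 6 replicate 2, 6 without 25% day 6 replicate 3 and 9 without 50% day 6 replicate 3.

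On day 9 the same steps were compared. At 12.5% against 25%, 6 members were lower, CCNE1 (-0.66), RFC3 (-0.64), GINS3 (-0.57), CDC45 (-0.54), GMNN (-0.46) and DNA2 (-0.36), and none was higher, where 4.42% of all genes were lower and 2.4% higher. The calls of CDC45 and RFC3 held when each library was left out. The count was 3 without 25% day 9 replicate 3 and 0 without the libraries high in keratin, which left 1 library at 25%. At 25% against 50%, 7 were lower and 3 higher, where 7.21% of all genes were lower and 6.64% higher. The count of higher members in this step was thus near the share over all genes. The higher ones were CDC6 (0.57), GMNN (0.57) and POLD3 (0.31). The lower ones included RFC2 (-0.76), TIMELESS (-0.66) and FEN1 (-0.63). The calls of RFC2, FEN1, TIMELESS, CHAF1B and CDC6 held when each library was left out. The count of lower members was 4 without 50% day 9 replicate 1, and that of higher ones was 1 without 50% day 9 replicate 2. Rescaling by the upper quartile turned the split of members into 4 lower and 9 higher, and moved the share of higher genes among all calls from 47.9% to 76% in this step and from 35.3% to 46.5% between 12.5% and 25%.

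The calls of the days were set side by side, since they rest on different 100% libraries. At 12.5%, 17 members were called lower on both days, which is 63% of the 27 of day 6 and 100% of the 17 of day 9. Of all genes tested, those called lower on both days at 12.5% were 56.8% of the day 6 calls and 75.7% of the day 9 calls. At 25%, 7 were called higher on both days, CCNE1, CDC45, CDC6, GMNN, ORC6, POLD3 and RFC4, which is 46.7% of the 15 of day 6 and 87.5% of the 8 of day 9, where the shares over all genes were 76.3% and 55.1%. FEN1, RFC2 and TIMELESS were called lower on both days, which is 100% of the 3 of day 6 and 37.5% of the 8 of day 9, where the shares over all genes were 70.6% and 55.7%. No member was called in opposite directions on the 2 days at either level. Of all 18799 genes 8 were at 12.5% and 2 at 25%.

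**Figure D4:**
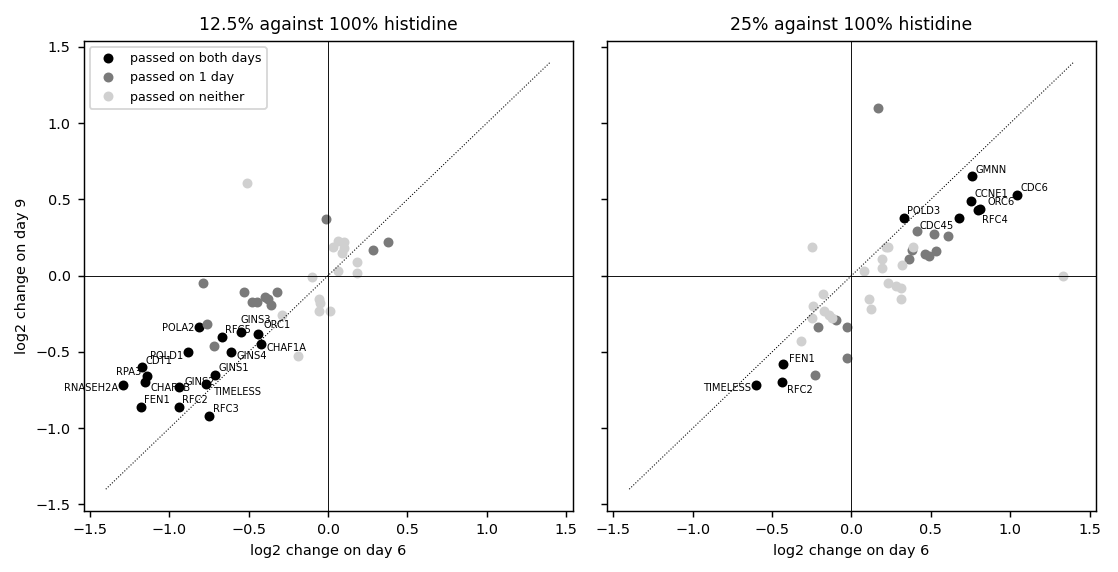
Log2 change of each replication gene on day 6 (x axis) and day 9 (y axis) at 12.5% (left) and 25% (right) against 100% of the same day, with the dotted line marking equal change and names on genes that passed on both days. The named genes lie in the lower left corner at 12.5%, and at 25% in the upper right corner except FEN1, RFC2 and TIMELESS.

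The difference between the days was tested directly. For 12.5% no member passed, where 0.0638% of all genes did, and 12 members had an unadjusted p under 0.05, as did 10% of all genes. The largest of these was ORC5 (1.12 ± 0.40, adjusted p = 0.341), then PRIM1 (0.74 ± 0.21, adjusted p = 0.224). For 25% no member passed either, where 0.00532% of all genes did, and 11 had an unadjusted p under 0.05, as did 5.5% of all genes. CDC6 was among the 11 (-0.50 ± 0.16, adjusted p = 0.621). Without 12.5% day 6 replicate 3, 1 member, PRIM1, passed at 12.5% (log2 change 0.97, adjusted p = 0.0324). At 100% histidine, day 9 against day 6, 3 members were higher and none lower, where 2.17% of all genes were called. They were CCNE2 (log2 change 0.50 ± 0.11, adjusted p = 0.0134), CDC6 (log2 change 0.43 ± 0.11, adjusted p = 0.0371) and RFC1 (log2 change 0.31 ± 0.07, adjusted p = 0.027). CDC6 lost its call without any one of 100% day 6 replicate 1, 100% day 9 replicate 1, 100% day 6 replicate 2, 100% day 9 replicate 2, 100% day 6 replicate 3 and 100% day 9 replicate 3 (log2 change 0.39 to 0.46, adjusted p 0.0707 to 0.157). CCNE2 lost it without any one of 100% day 6 replicate 2, 100% day 9 replicate 2, 100% day 6 replicate 3 and 100% day 9 replicate 3 (log2 change 0.43 to 0.49, adjusted p 0.0502 to 0.0914), and RFC1 without any one of 100% day 6 replicate 2, 100% day 9 replicate 2, 100% day 6 replicate 3 and 100% day 9 replicate 3 (log2 change 0.26 to 0.33, adjusted p 0.0768 to 0.132).

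Other genes of the pathway were also mostly lower without histidine. Of 30 further genes of the pathway, 23 were lower and 1 higher without histidine on day 6, and 15 lower and 1 higher at 12.5%. Of all genes tested, 16.5% were lower and 13.3% higher without histidine, and 15.3% lower and 11.7% higher at 12.5% on that day. At 25% 1 was lower and 8 were higher on day 6, and 6 lower and 7 higher on day 9. The shares over all genes at 25% were 6.92% lower and 6.79% higher on day 6, and 8.76% lower and 9.4% higher on day 9. DSCC1, a clamp loader subunit, fell without histidine (log2 change -1.67 ± 0.12, adjusted p = 1.81e-10), as did CCNA2, cyclin A2 (log2 change -1.67 ± 0.11, adjusted p = 8.55e-11), ASF1B, a histone chaperone (log2 change -1.56 ± 0.13, adjusted p = 4.16e-09), and TICRR, a firing factor (log2 change -1.55 ± 0.11, adjusted p = 1.14e-10). CCNA2 rose at 25% on day 9 (log2 change 0.71 ± 0.11, adjusted p = 8.08e-05) and on day 6 (log2 change 0.48 ± 0.13, adjusted p = 0.0113), where the call ended without any one of 25% day 6 replicate 2 and 25% day 6 replicate 3 (log2 change 0.44 to 0.53, adjusted p 0.055 to 0.115). The 1 that rose without histidine was CHTF8, a subunit of the same loader (log2 change 0.35 ± 0.13, adjusted p = 0.0473), and its call ended without any one of 100% day 6 replicate 2, 100% day 6 replicate 3, no-histidine day 6 replicate 2 and no-histidine day 6 replicate 3 (log2 change 0.24 to 0.34, adjusted p 0.099 to 0.226). All 7 MCM helicase genes were lower without histidine and at 12.5% on both days, 5 were lower at 25% on day 9, and at 25% on day 6 1 was lower and 1 higher. At 12.5% on day 9, 11.5% of all genes were lower, and the other shares are those given above for the 30 genes. The proliferation markers changed as well. MKI67 changed by -1.32 ± 0.15 without histidine (adjusted p = 1.92e-07), 0.41 ± 0.15 at 12.5% (0.0395) and 0.35 ± 0.16 at 25% (0.166) on day 6, and by 0.52 ± 0.15 at 25% on day 9 (0.0137). TOP2A changed by -1.58 ± 0.08 without histidine (adjusted p = 1.53e-12) and by -0.34 ± 0.08 at 12.5% on day 6 (0.0035). On day 9 TOP2A changed by -0.37 ± 0.08 at 12.5% (0.00205) and by 0.27 ± 0.08 at 25% (0.0236). The rise of TOP2A at 25% on day 9 ended without any one of 100% day 9 replicate 2, 100% day 9 replicate 3, 25% day 9 replicate 2 and 25% day 9 replicate 3 (log2 change 0.23 to 0.26, adjusted p 0.0681 to 0.104). The rise of MKI67 at 12.5% ended without any one of 100% day 6 replicate 1, 100% day 6 replicate 3, 12.5% day 6 replicate 1 and 12.5% day 6 replicate 2 (log2 change 0.34 to 0.43, adjusted p 0.0725 to 0.15). Their part in the members' changes was not tested.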

How the data were processed

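RNA sequencing was carried out on 25 libraries of DND-41 cells, from total RNA made into strand-specific libraries, per the labels' protocols. The deposited values are a signal per gene, normalized counts for which the authors used kallisto 0.50.1, DESeq2 1.44.0 and the build GRCh38, and FastQC 0.11.9 is listed too, per the submitters' processing notes. Which annotation and strand setting were used is not given in the sources used here. Transcript-based counting shares reads among near-identical copies. Whole reads were not recovered, since between libraries 37.8% to 76.1% of the values below 20 fell within 0.05 of whole multiples, so no count test was run, and depth is known as the total of normalized counts.

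Of 31919 genes, 18799 with at least 10 in at least 2 libraries were fitted with limma 3.58.1 in R 4.3.3 on log2(value + 1), with a mean-variance trend, 9 group means and 16 residual degrees of freedom, in 15 contrasts. The fold changes on this scale understate those of low genes. P-values are two-sided and Benjamini-Hochberg adjusted over all genes tested in a contrast, with a threshold of 0.05. The procedure was tested on simulated data with 200 changed genes and independent noise for each gene. The simulation held no shift in scaling and no outlying library, so it cannot show how the calls behave under those. Figures and tables used Python 3.11.15 and matplotlib 3.10.9. Groups follow the titles. Days are also those of the titles, from which the time label of 1 no-histidine library differs. The series' design text names earlier days than the titles, and this difference was not resolved.

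The members, lists and tests were chosen with earlier results of these data known. Given in full were, in each role, the 2 members with the largest fall without histidine, every member that rose at any level, the 6 with the smallest change without histidine, and those with the highest and lowest mean, 34 members in all. Exceptions are POLA1, PRIM2 and RPA2, printed for part of the day 6 levels, and DNA2 and WDHD1, printed for day 6 only. Of 30 other replication genes up to 4 were named by size of change. CHTF8, the neighbouring-step genes and the unadjusted hits were named after their values were seen. Of the marker lists, MS4A1, CD22, FCGR3A, HBB, HBA1, HBA2, COL3A1 and KRT14 were not analysed here. The erythroid marker KLF1 stood at 0 to 15.5. Alternatives were another pseudocount, filters, scalings, no trend, a replicate block, the compared groups alone and leaving out each library. A keratin covariate, a 5.8S rRNA covariate and the omission of libraries high in keratin were chosen after seeing the data.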

Additional observations from a re-analysis of the deposited data

Results flagged for a closer look

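At 25% against 100%, POLA2, a subunit of polymerase alpha, had libraries on opposite sides of the 100% group on the 2 days. On day 6 its values were 1329 and 1319.9 at 25%, all above 1263, 1139 and 1250.3 at 100%, and on day 9 they were 1022, 1176 and 1201 at 25%, all below 1209, 1520.5 and 1243 at 100%. The change on day 9 minus that on day 6 was -0.34, and the limma test of that difference did not pass (adjusted p = 0.859). RFC1, the large clamp loader subunit, showed the same arrangement. On day 6 RFC1 had 3077 and 3034 at 25%, all above 2989, 2892 and 2632 at 100%, and on day 9 it had 3044, 3145 and 3321 at 25%, all below 3367, 3698 and 3506 at 100%. The difference between the days was -0.26 and did not pass (adjusted p = 0.835). Groups of 2 or 3 libraries are too small for a test of single outlying libraries.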

How the results depend on the processing

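Of 204 results for members given in full, 117 were called, and 85 of these kept the call under every alternative chosen at the start. No called value reversed. Under the replicate block, with the replicate number as a block, all 204 kept their side of the threshold, with 39 lower and 1 higher without histidine and 3 lower and 15 higher at 25% on day 6. Libraries of the same replicate number had correlations of deviations of -0.128 to 0.0819, and libraries of different numbers had -0.126 to 0.123. These ranges cannot decide whether the numbers pair the libraries, since they pool pairs within and between days and rest on small groups. Whether libraries of the same number share a culture was not tested.

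Member counts that moved by more than 1.5 times are grouped by setting. Without the libraries high in keratin, which left 1 library in each of 3 groups, higher counts were 0 without histidine, 1 at 12.5% and 6 at 25% on day 6, and 1 at 25% on day 9, and lower counts were 1 at 25% on day 6 and 4 at 25% on day 9. In the same fit the steps gave 1 lower and 9 higher for 25% against 50% on day 6, 0 lower for 12.5% against 25% and 4 lower and 1 higher for 25% against 50% on day 9, and 0 higher for day 9 against day 6. With the keratin covariate 1 was lower at 25% on day 6, 5 were higher at 25% on day 9, 1 was lower for 25% against 50% on day 6 and 3 for 12.5% against 25% on day 9. With the 5.8S rRNA covariate 0 were higher at 12.5% on day 6 and 2 lower for 25% against 50%. Upper-quartile rescaling gave 2 higher at 12.5% and 4 lower at 25% on day 9, 0 higher without histidine against 12.5%, 22 lower for 12.5% against 25% and 8 higher for 25% against 50% on day 6, 4 lower and 9 higher for 25% against 50% on day 9, and 0 higher between days, with 7.78% of all calls higher there, against 50.5% before. Quantile normalization gave 4 higher at 12.5% on day 6 and 3 on day 9. With no filter 1 was higher at 12.5% on day 6, 2 lower for 25% against 50% and 1 higher between days, and with no trend 1 and 2 for the first 2 of these. A filter at 50 gave 2 higher at 12.5% on day 9 and 10 lower for 12.5% against 25%. The compared groups alone gave 2 higher at 12.5% on day 9, 0 higher without histidine against 12.5%, 1 lower and 8 higher for 25% against 50% on day 6 and 15 lower for 12.5% against 25% on day 9.

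Leaving out each library gave 38 to 39 lower without histidine, 22 to 28 lower and 0 to 1 higher at 12.5% on day 6, 1 to 3 lower and 5 to 13 higher at 25% on day 6, 13 to 17 lower and 1 to 2 higher at 12.5% on day 9, and 6 to 9 lower and 6 higher at 25% on day 9. For steps it gave 29 to 33 lower and 1 to 2 higher without histidine against 12.5%, 24 to 37 lower for 12.5% against 25% and 1 to 4 lower and 6 to 13 higher for 25% against 50% on day 6, 3 to 7 lower for 12.5% against 25% and 4 to 6 lower and 1 to 3 higher for 25% against 50% on day 9, 0 to 2 higher between days, and 0 to 1 higher for the day difference at 12.5%. The causes were not tested, beyond fewer libraries. Groups of 2 or 3 libraries and unknown read depth limit the size of change that could be called.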

Other observations

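Ratios within 2 pairs of partner genes are given as a description. The pairs were chosen after their values were seen, and since normalized counts are not per length, only the change of a ratio between groups can be read. The ratio of CDT1 to GMNN, the loading factor to its inhibitor, was 2.71 to 3.25 without histidine, 2.68 to 2.71 at 12.5%, 3.35 to 3.40 at 25%, 5.37 to 6.83 at 50% and 5.41 to 6.77 at 100% on day 6. On day 9 it was 3.22 to 3.45 at 12.5%, 2.92 to 3.30 at 25%, 5.69 to 5.98 at 50% and 4.47 to 7.24 at 100%. The libraries at 25% and below lay under all libraries at 50% and 100% on both days. With 3 libraries against 3 an exact two-sided permutation test cannot go below p = 0.1, so no comparison of these ratios can pass.

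The ratio of RFC4 to RFC2, both small clamp loader subunits, was 1.14 to 1.38 without histidine, 2.01 to 2.23 at 12.5%, 2.45 to 2.50 at 25%, 1.09 to 1.20 at 50% and 0.97 to 1.10 at 100% on day 6. On day 9 it was 1.90 to 2.13 at 12.5%, 2.06 to 2.27 at 25%, 1.05 at 50% and 0.96 to 1.03 at 100%. The ratio was highest at 25% on day 6, and the no-histidine libraries lay between those at 12.5% and those at 100%.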
